A study of Mus musculus with 4 samples.

Results

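A set of 6 transcription and cell cycle regulators of multiciliated cells that do not belong to the RFX family was followed in testes of mice that lack functional Rfx2. They are Foxj1, E2f4, E2f5, Trp73, Myb and Ccno, 6 of the 22311 gene symbols with an expression value. They were chosen by symbol for their known roles. The rule used no measured value, but earlier results of these data were known when it was set. All 6 were found, each as a single entry, in every sample. RNA from whole testes of mice at postnatal day 24 (P24) was sequenced from 2 Rfx2 mutant samples, mutant 1 and mutant 2, and 2 control samples, control 1 and control 2. In the mutant, which came from 1 targeted embryonic stem cell clone, a neomycin resistance cassette replaces the exons that encode the DNA binding domain of RFX2, in every tissue and not only in germ cells. Per the labels the controls were wild type and the strain was DBA, whereas the methods of the study describe heterozygous controls and a mixed background that includes C57BL/6. No other allele and no treatment is given for either group. The samples are called biological replicates, and where these are not separate animals the p-values measure only the spread between samples.

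A multiciliated cell makes many centrioles and builds a motile cilium on each of them. In the known pathway the geminin relatives GEMC1 (gene Gmnc) and multicilin (gene Mcidas) bind E2F4 or E2F5 together with the dimer partner DP1, and these complexes switch on Myb, Foxj1, Trp73, Ccno and the genes of centriole amplification. FOXJ1 and the RFX factors then act on the genes of the motile axoneme. Male germ cells build a single motile axoneme, the sperm flagellum, and they use many of the same axonemal genes. In the male tract the multiciliated cells line the efferent ducts, not the seminiferous tubules.

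RFX factors bind a DNA motif called the X-box, a pair of inverted half-sites separated by a short gap, and the members were therefore searched for it. In the 1000 bases to each side of the first annotated start of each gene, on both strands of the mouse genome NCBIM37 (mm9), and with a gap of 0 to 3 bases, 2 of the 6 members (33.3%) held a match. The share was 4.6% of the 12413 tested genes with an annotated start (571 genes) and 3.79% of all 20078 genes with one. Both matches lay within 300 bases of the start, where 2.87% of the tested genes held one. The matches were in Ccno, 219 to 206 bases before its start, with a gap of 2 bases, and in E2f5, 82 to 70 bases before its start, with a gap of 1 base. The 250 bases before the start of each of these 2 genes are shown because they hold these matches. They are chr13:113777760-113778009 for Ccno and chr3:14578421-14578670 for E2f5, both on the plus strand, which is the strand of both genes, and capitals mark the X-box.
Ccno: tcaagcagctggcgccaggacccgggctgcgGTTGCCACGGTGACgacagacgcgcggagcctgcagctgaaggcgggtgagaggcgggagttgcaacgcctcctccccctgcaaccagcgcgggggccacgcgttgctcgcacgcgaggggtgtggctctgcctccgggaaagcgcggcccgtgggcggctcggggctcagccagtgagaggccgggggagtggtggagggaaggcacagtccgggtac
E2f5: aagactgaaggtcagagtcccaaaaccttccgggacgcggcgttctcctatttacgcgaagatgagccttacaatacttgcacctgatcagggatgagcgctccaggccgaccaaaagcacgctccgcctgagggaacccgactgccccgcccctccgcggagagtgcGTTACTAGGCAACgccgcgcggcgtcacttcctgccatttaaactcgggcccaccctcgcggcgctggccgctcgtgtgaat
Read on the strand of the gene, the X-box is GTTGCCACGGTGAC in Ccno and GTTACTAGGCAAC in E2f5. No match was found around the starts of Foxj1, E2f4, Trp73 and Myb, which says only that the letters are not in these windows. A match is a property of the sequence, and binding was not measured in these files.

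The 6 genes are spread over 6 chromosomes of NCBIM37. Foxj1 lies at chr11:116192018-116196713 on the minus strand, E2f4 at chr8:107821563-107829269 on the plus strand and E2f5 at chr3:14578671-14606308 on the plus strand. Trp73 lies at chr4:153430358-153514317 and Myb at chr10:20844736-20880790, both on the minus strand. Ccno is at chr13:113778010-113780986 on the plus strand, and the next gene of the pathway, Mcidas, starts 3089 bases after its end. Foxj1 and Ccno are short genes with 1 annotated coding transcript of 3 exons each, and Trp73 has 6 coding transcripts with up to 14 exons. None of the 50-base stretches of the members' coding transcripts occurs in a coding transcript of another gene, so no near-identical coding copy was found that could share their reads.

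Levels are given as FPKM, fragments per transcript length and sequencing depth, as Cufflinks estimated them for the authors. The samples held 22553 to 22563 entries, and 12557 to 12942 genes had an FPKM of at least 1. The width of the deposited confidence intervals corresponds to a relative depth between 0.843 and 1 of that of control 2. The targeted gene, Rfx2, had an FPKM of 36.7 and 39.8 in mutants and 123 and 89.4 in controls, and its log2 fold change of -1.43 passed the test (standard error, SE, 0.19, Benjamini-Hochberg adjusted p = 0.00617 in limma). The adjusted p was above the threshold without a filter (0.0607), with median-ratio scaling (0.0675) and without control 1 (0.0710), where the fold change stayed negative. The FPKM of Rfx2 covers all exons of the gene and does not show whether the deleted exons are present. Fold changes here are differences of the mean log2(FPKM + 1), mutant minus control, and the 12985 genes that reached an FPKM of 1 in 2 or more samples were tested.

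None of the members passed the test. Foxj1, E2f4, E2f5 and Ccno were tested, and 0 of these 4 had an adjusted p under 0.05 in limma, while 1 of them, Ccno, had an unadjusted p under 0.05. Among all genes tested, 2.52% were called lower and 0.308% higher in the mutant. The mutant values lay below both control values in 1 of the 4 tested members, again Ccno, against 15.2% of all genes, and in none of the 4 did they lie above, against 16.3% of all genes. The median log2 fold change of the 4 was -0.34, beside 0.03 over all genes tested, whose fold changes lay between -0.76 and 0.33 at the 5th and 95th percentiles. Ccno was among the 4 only because both of its control values reached the FPKM minimum. The counts and the median that include it are therefore no independent evidence of a direction. Myb and Trp73 stayed under the FPKM minimum and have levels only.

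**Figure D1:**
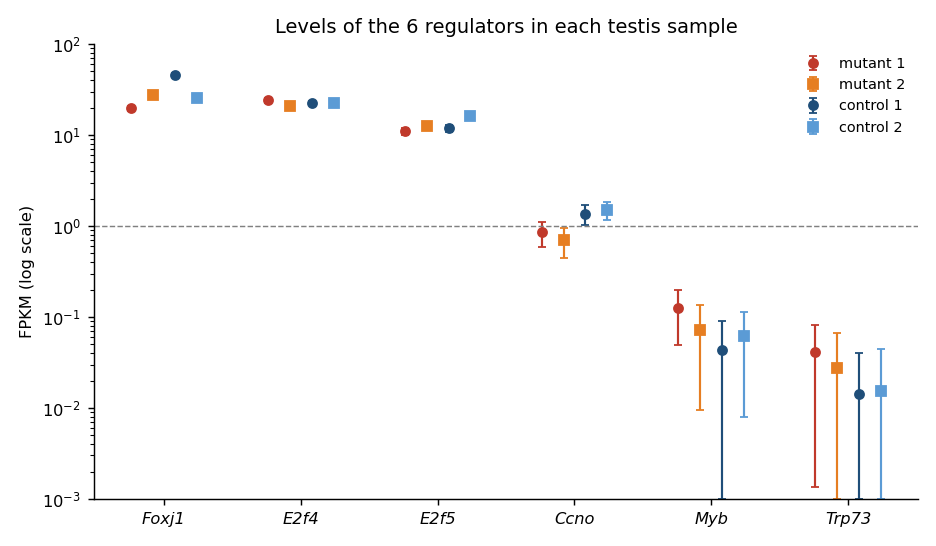
FPKM of the 6 regulators on a log scale in mutant 1, mutant 2, control 1 and control 2. Points are the deposited values, bars are the deposited confidence intervals, cut at the lower edge of the axis where they reach 0, and the dashed line is the minimum of 1. Foxj1, E2f4 and E2f5 lie above 10 in every sample, Ccno lies on either side of 1, and Myb and Trp73 lie at or below 0.124.

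The levels, which are normalized for transcript length, fell into an order that was almost the same in all samples. Foxj1 had the highest mean over the 4 samples (29.6), but its range overlapped that of E2f4 (mean 22.3), so these neighbours did not separate. E2f4 lay above E2f5 (12.9), E2f5 above Ccno (1.10), Ccno above Myb (0.0751) and Myb above Trp73 (0.0245), without overlap between the ranges. The ratio of E2f4 to E2f5 was 2.17 and 1.67 in mutants and 1.88 and 1.37 in controls. The ratio of Foxj1 to E2f4 was 0.817 and 1.32 in mutants and 2.06 and 1.14 in controls, so that Foxj1 was below E2f4 in mutant 1 and above it in the other 3 samples.

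Foxj1 encodes a forkhead factor that drives the genes of motile cilia. Its FPKM was 19.6 in mutant 1, 27.3 in mutant 2, 46.2 in control 1 and 25.4 in control 2. Control 1 stood apart as the highest sample, and control 2 lay below mutant 2, so the groups overlapped. The 2 control samples differed from each other 1.82-fold and the mutant samples 1.39-fold, while the deposited interval of each value was narrow (44.5 to 47.8 in control 1, 24.2 to 26.6 in control 2). The mean was 23.4 ± 5.45 in mutants and 35.8 ± 14.7 in controls (SD, n = 2 each). The log2 fold change was -0.55 with a standard error of 0.29 and a 95% interval of -1.22 to 0.12 (adjusted p = 0.807, limma with Benjamini-Hochberg adjustment), which did not exceed the spread between samples. The estimate depended on single samples. Without control 1 it was -0.13, without control 2 -0.97 and without mutant 2 -0.78. A fit that leaves 1 sample in a group cannot measure the spread of that group. The level was high among all genes, with 82.3% to 91.3% of the genes of a sample below it. By real-time PCR on individual testes, the paper reported Foxj1 as not changed in the mutant.

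E2f4 and E2f5 encode repressor-type E2F factors that lack a strong activity of their own and that serve the multiciliation program in complex with multicilin. E2f4 had an FPKM of 23.9 and 20.7 in mutants and 22.4 and 22.2 in controls. The control values lay between the mutant values, and the group means were equal at 22.3, with an SD of 2.29 in mutants and 0.135 in controls (n = 2 each). The log2 fold change was -0.0024 (95% interval -0.40 to 0.39, adjusted p = 1.0 in limma after Benjamini-Hochberg adjustment), so the interval leaves room for a change of up to 0.40 in either direction.

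E2f5 had an FPKM of 11.04 and 12.4 in mutants and 11.9 and 16.2 in controls. Control 2 was the highest, the other 3 samples lay close together, and the groups overlapped. The log2 fold change was -0.23 (SE 0.21, 95% interval -0.72 to 0.26), with an unadjusted p of 0.314 and an adjusted p of 1.0 in limma. It was -0.43 without control 1 and -0.02 without control 2. The X-box before the start of E2f5, shown above, thus stands beside a gene without a detected difference at this spread between samples.

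E2f4 and E2f5 were the most abundant members of their family in the testis. Of the summed FPKM of E2f1 to E2f8, E2f4 took 41.2% to 44.8% and E2f5 20.6% to 30.0%. The next genes, E2f6 (mean FPKM 5.56), E2f8 (3.70) and E2f1 (3.01), lay lower, and from E2f6 downward the ranges of neighbours overlapped. The dimer partner Tfdp1, which encodes DP1, had an FPKM of 18.0 and 15.6 in mutants and 14.4 and 15.4 in controls, and its relative Tfdp2 one of 5.03 and 3.54 against 3.24 and 4.10. E2f1, an activator of S phase genes, had 3.51 and 2.48 against 2.78 and 3.25. Of the 8 other E2F family members and dimer partners, all were tested, 0 passed the threshold in either direction, and their log2 fold changes lay between -0.18 and 0.17 with a median of -0.05.

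**Figure D2:**
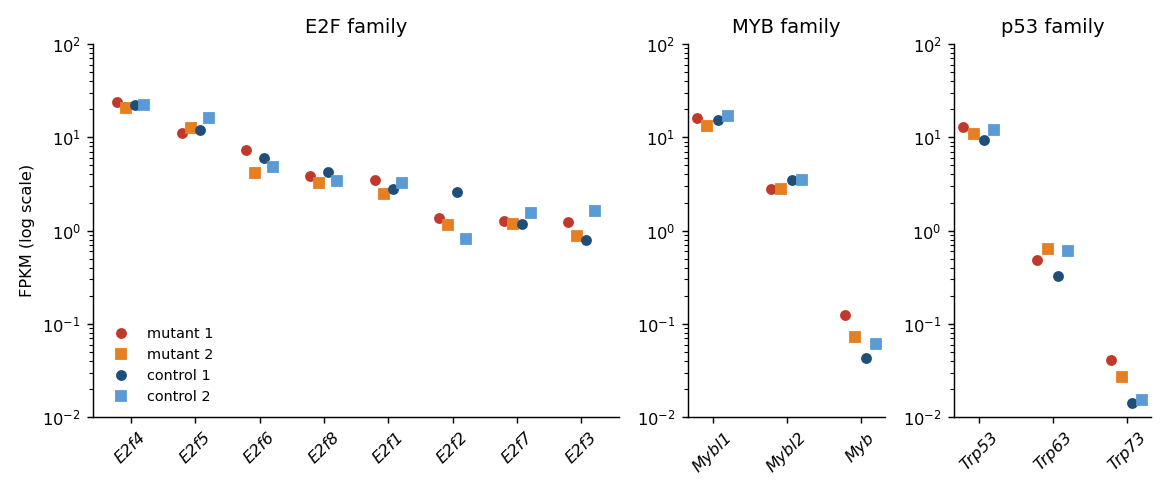
FPKM on a log scale of the genes of the E2F, MYB and p53 families in mutant 1, mutant 2, control 1 and control 2, ordered by mean level. E2f4 and E2f5 lead the E2F family, whereas Myb and Trp73 are the lowest of their families in all 4 samples.

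E2F4 and E2F5 repress cell cycle genes together with the pocket proteins and the MuvB complex, the core of the DREAM complex. All 8 genes of that list were tested and 0 passed in either direction, with a median log2 fold change of -0.02. The lowest, Rbl2, which encodes the pocket protein p130 and is named here after its value was seen, had an FPKM of 6.08 and 8.48 in mutants and 10.1 and 11.3 in controls. Both of its mutant values lay below both control values, and its log2 fold change of -0.51 did not pass (adjusted p = 0.578, limma with Benjamini-Hochberg adjustment).

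Ccno encodes an atypical cyclin needed for centriole amplification in multiciliated cells. Its FPKM was 0.852 in mutant 1, 0.697 in mutant 2, 1.35 in control 1 and 1.51 in control 2. Both mutant values were under both control values, and the highest mutant value was 0.632 of the lowest control value. The mean was 0.774 ± 0.110 in mutants and 1.43 ± 0.113 in controls (SD, n = 2 each), so that the mutant mean was 54.2% of the control mean. The interval that Cufflinks gave for mutant 1 (0.592 to 1.11) overlapped that of control 1 (1.01 to 1.68) but not that of control 2 (1.16 to 1.85), and the interval of mutant 2 (0.442 to 0.951) overlapped neither.

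The difference in Ccno did not pass the test across all genes. Its log2 fold change was -0.45 (SE 0.19, 95% interval -0.89 to -0.02, unadjusted p = 0.0435, adjusted p = 0.532 in limma after Benjamini-Hochberg adjustment), and 8.18% of the genes tested had a smaller p. The pseudocount of 1 is about the size of its level and shrinks this value, which was -0.81 with a pseudocount of 0.1 and -0.88 with one of 0.01. Ccno passed the filter only through the 2 control samples, so its place among the tested genes is tied to the group where it was higher. A 2-against-2 exact permutation test cannot give a two-sided p below 0.333. The interval widths correspond to 43 and 30 fragments in mutants and 65 and 77 in controls, 73 against 142 in all, so counting error is a large part of the spread of single values. Ccno is also the member whose X-box lies 219 bases before its start, and a link between that match and its level was not tested.

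Myb encodes c-Myb, a factor of progenitor cells that multicilin switches on early in multiciliated cells. Its FPKM was 0.124 and 0.0725 in mutants and 0.0432 and 0.0611 in controls, which corresponds to between 3.33 and 11 fragments per sample. Both mutant values lay above both control values, at levels where the deposited intervals overlapped (0.0492 to 0.198 in mutant 1 and 0 to 0.0905 in control 1). In a fit without the filter the log2 fold change was 0.06 (unadjusted p = 0.182, adjusted p = 0.924 in limma), and a difference was not detectable at this depth. The relative Mybl1, which encodes A-MYB, a regulator of meiosis in spermatocytes, was 131 and 184 times as abundant as Myb in mutants and 351 and 278 times in controls.

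Mybl1 took 81.0% to 84.9% of the summed FPKM of the 3 MYB genes and Myb took 0.231% to 0.647%. Mybl1 had an FPKM of 16.2 and 13.4 in mutants and 15.1 and 17.0 in controls, with overlapping groups and a log2 fold change of -0.12. Mybl2, a cell cycle gene, had 2.77 in both mutant samples and 3.50 and 3.48 in controls. Its log2 fold change of -0.25 did not pass (adjusted p = 1.0, limma with Benjamini-Hochberg adjustment), although both mutant values were the lower ones. All 5 genes of the list of MYB genes and targets of A-MYB were tested and 0 passed in either direction.

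Trp73 encodes p73, a p53 relative that acts upstream of Foxj1 in airway multiciliated cells and that the testis needs for the adhesion of germ cells. It was the lowest member, with an FPKM of 0.0411 and 0.0274 in mutants and 0.0143 and 0.0154 in controls. Both mutant values were above both control values, but they correspond to between 1.10 and 4.28 fragments per sample, and 3 of the 4 deposited intervals reached 0. A difference was not detectable at this depth. Trp73 took 0.122% to 0.305% of the summed FPKM of the 3 p53 family genes, of which Trp53 took 94.2% to 96.5%. Trp63, which encodes p63, had an FPKM of 0.489 and 0.640 in mutants and 0.326 and 0.600 in controls and was under the filter. In the list of p53 and MDM genes 6 of 7 were tested and 0 passed in either direction, with a median log2 fold change of 0.03.

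The genes around the members in the pathway were taken from a list of 14, of which Cdc20b and Ccp110 were not analysed here. The 2 upstream switches were hardly detected. Mcidas, listed as Gm6320, had an FPKM of 0.0463 and 0.0723 in mutants and 0 and 0.0305 in controls, and Gmnc, listed as Gm606, had 0.00856 and 0.010 against 0.0179 and 0.0253. Gmnn, which encodes their relative geminin, an inhibitor of DNA replication licensing, was abundant, with 44.4 and 32.2 in mutants and 33.1 and 36.4 in controls. Of the 12 genes found, 8 were tested, and 0 passed the threshold in either direction. Mutant and control values did not overlap, with the mutant lower, in 4 of these 8, against 15.2% of all genes. Rfx3, among the 4, reached the FPKM minimum in 2 samples only because of its controls. The count that includes it is therefore no independent evidence of a direction.

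The largest differences in this list were those of Deup1 and Rfx3. Deup1, listed as Ccdc67, encodes the scaffold of the deuterosome, on which multiciliated cells build new centrioles. Its FPKM was 15.6 and 26.4 in mutants and 41.9 and 36.3 in controls, and its log2 fold change was -0.91 (SE 0.25, adjusted p = 0.153, limma with Benjamini-Hochberg adjustment). Both mutant values of Deup1 lay below both control values, and the size of the difference varied with the samples used. Its log2 fold change was -1.27 without mutant 2, -0.55 without mutant 1, -0.81 without control 1 and -1.01 without control 2. A replicate block, a fit that takes samples of the same number as pairs, gave an adjusted p of 0.00438 in limma, and the crossed pairing gave 0.112. The replicate block fit took its variance almost wholly from all genes at a similar level, so its p does not measure the spread of Deup1 between samples. Rfx3, a relative of Rfx2 that acts on ciliary genes, had 0.946 and 1.04 in mutants and 2.30 and 2.79 in controls (log2 fold change -0.83, SE 0.20, adjusted p = 0.0982, limma), and with robust variance moderation the adjusted p was 0.0445. Its level is near the pseudocount of 1, and the log2 fold change was -1.27 and -1.34 with pseudocounts of 0.1 and 0.01, neither of which passed (adjusted p = 0.117 and 0.129, limma). The log2 fold changes of the other 6 tested genes lay between -0.30 and 0.12, and they include Plk4, Sass6 and Stil, which act in centriole duplication in dividing cells too. Deup1 was 18.3 to 37.9 times as abundant as Ccno in the same samples.

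**Figure D3:**
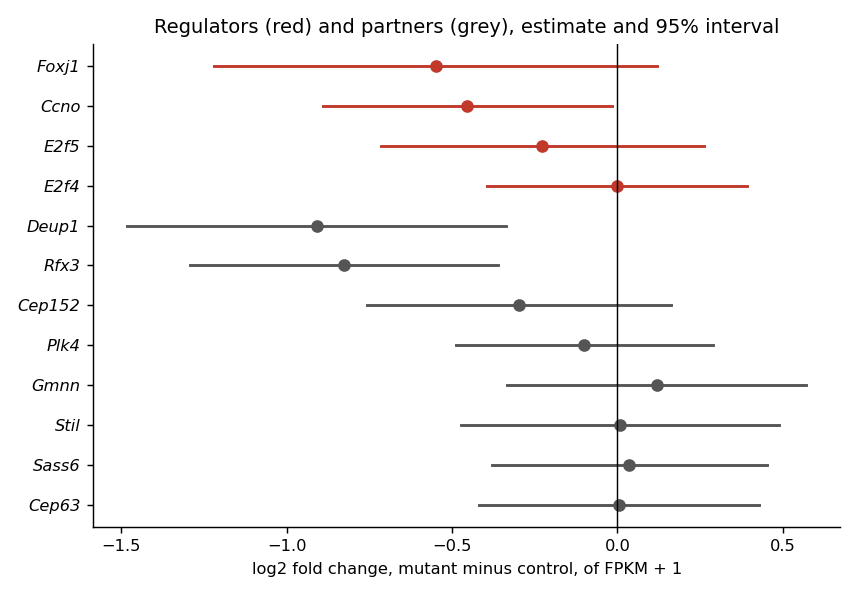
Log2 fold change of FPKM + 1, mutant minus control, for the 4 tested regulators and 8 tested genes of the same pathway, with the estimate as a point and its 95% interval from limma as a line. The intervals of Foxj1, E2f5 and E2f4 include 0, that of Ccno ends at -0.02, and those of Deup1 and Rfx3 lie below 0 without passing the adjusted threshold.

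The cyclins and forkhead genes were looked at as the relatives of Ccno and Foxj1. All 14 cyclins and partner kinases were tested and 0 passed in either direction, with a median log2 fold change of 0.02. The lowest was Ccnd3, which encodes cyclin D3 and is named here after its value was seen, with an FPKM of 23.7 and 38.6 in mutants and 54.5 and 46.0 in controls (log2 fold change -0.71, adjusted p = 0.311, limma). Of 11 other forkhead genes 10 were tested and 0 passed, with log2 fold changes between -0.05 and 0.28.

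The genes of the motile axoneme, on which FOXJ1 and the RFX factors act in ciliated cells, differed between the genotypes where the members did not pass. Of 22 genes in the list 18 were tested, and 11 were lower in the mutant at an adjusted p under 0.05 in limma, against 2.52% of all genes. None passed as higher. Of the genes under the filter, Dnahc5, Dnahc9 and Dnahc11 had both mutant values above both control values, at low levels, and Rsph4a overlapped. The FPKM of Dnahc9 was 0.612 and 1.07 in mutants and 0.379 and 0.345 in controls. Of the 11 genes called lower, 7 were chosen by the study on these samples and are no independent evidence of a direction. Among the 11 tested genes that the study had not chosen on these samples, 4 were lower and 7 did not pass. The latter include Spag6, which the paper examined by RT-PCR as a potential RFX2 target and reported as unchanged. The lowest adjusted p values belonged to Lrrc23, Rsph9, Dnaic2 and Tekt4, of which only Dnaic2 was not among the genes chosen by the study. Lrrc23, Rsph9 and Dnaic2 reached the FPKM minimum in 2 samples only through the controls. Their place among the tested genes is thus tied to the group where they were higher. In the fit without a filter, 11 genes of the list were called lower as well. Dnaic2, which encodes an intermediate chain of the outer dynein arm, had an FPKM of 0.286 and 0.16 in mutants and 43.1 and 28.4 in controls, with a log2 fold change of -4.88 (adjusted p = 4.3e-05, limma with Benjamini-Hochberg adjustment). Dnaic1, its partner in the same arm, is named after its values were seen, with 72.1 and 85.0 in mutants and 51.4 and 44.1 in controls, and it did not pass (adjusted p = 0.0998, limma). The difference between the axonemal genes and the members was not itself tested.

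In whole testes, fewer cells of a type and less RNA per cell cannot be told apart. The markers of elongating spermatids varied widely between samples, with a summed FPKM of the 9 genes of 1302 in mutant 1, 6526 in mutant 2, 7988 in control 1 and 5401 in control 2. Those of round spermatids summed to 544, 952, 910 and 753 in the same order. None of the 9 genes of either list passed the test, and none of their genes is at 0. Mutant 1 had the lowest sum in both lists, while mutant 2 had a higher sum than control 2 in both.

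Foxj1 ordered the samples from mutant 1 over control 2 and mutant 2 to control 1, as the summed elongating spermatid markers did and the summed round spermatid markers did not. Of the single markers, 3 of 9 in the elongating and 2 of 9 in the round spermatid list had that order, and 4 and 6 were highest in mutant 2. Mutant 1 was the lowest sample in 9 of 9 elongating and 8 of 9 round spermatid markers, as it was for Foxj1. Ccno was lower in mutant 2 (0.697) than in control 2 (1.51), and so was Deup1 (26.4 against 36.3). Between these 2 samples 7 of the 9 elongating and 8 of the 9 round spermatid markers were higher in mutant 2, and Prm1, Tnp1 and Spaca7 were lower. The part of spermatid content in these values was not tested.

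**Figure D4:**
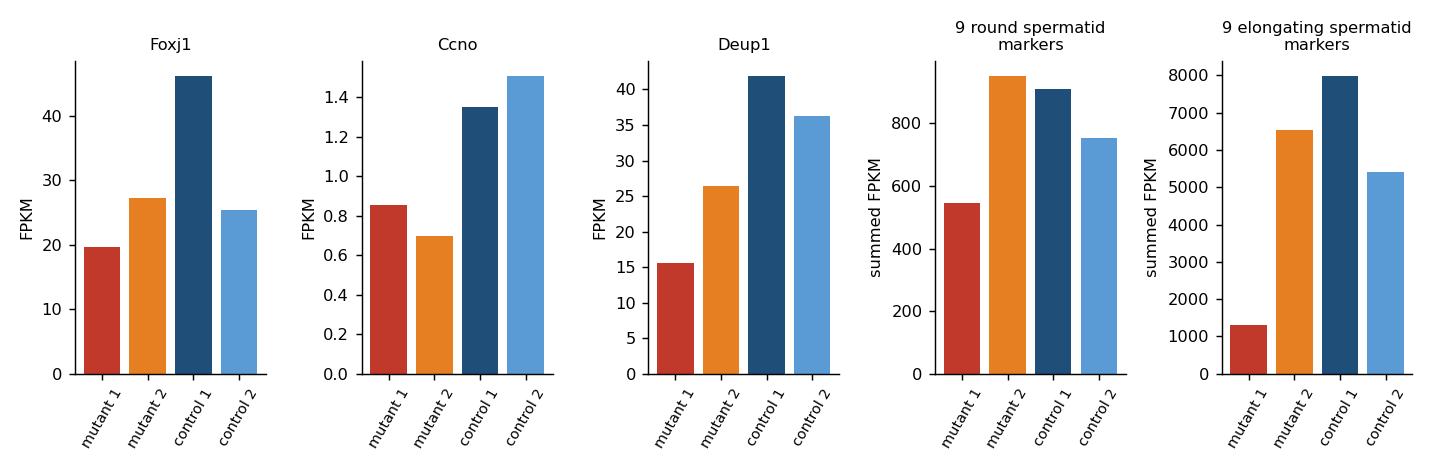
Bars show the FPKM of Foxj1, Ccno and Deup1 and the summed FPKM of 9 round and 9 elongating spermatid markers in mutant 1, mutant 2, control 1 and control 2, each panel with its own axis from 0. Mutant 1 is lowest for Foxj1, Deup1 and both marker sums, and Ccno and Deup1 are lower in either mutant than in either control.

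The markers of the other cell types are given as sums. The 9 spermatocyte markers summed to 3527 and 3540 in mutants and 3750 and 3266 in controls. The Sertoli cell markers, 8 of which were found, summed to 749 and 655 against 501 and 690, and the 7 Leydig cell markers to 454 and 242 against 390 and 139. The summed markers of spermatogonia were 111 and 87.9 against 76.7 and 112, those of peritubular and endothelial cells 72.3 and 72.3 against 61.7 and 91.5, and those of macrophages 28.9 and 21.2 against 23.4 and 37.3. No gene of these lists passed the test. The 8 efferent duct and epididymis markers summed to 8.10 and 1.56 in mutants and 1.33 and 4.62 in controls, with 7 of the 8 under an FPKM of 1 in every sample and Lcn8 at 0 in all of them. The sum was mostly Crisp1, an epididymal gene, with an FPKM of 6.99 and 0.0320 in mutants and 0 and 3.19 in controls. The other 7 markers summed to 1.11 and 1.53 in mutants and 1.33 and 1.43 in controls. Of these, Pax2 (0.282 and 0.220 against 0.541 and 0.406) and Slc9a3 (0.0435 and 0.0680 against 0.106 and 0.0860) were lower in both mutants. Pax8, Aqp1, Lrp2 and Lcn5 overlapped between the groups, and all 7 were under the filter and not tested. The part of efferent duct cells in the values of the members was not tested.

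The genes most like the members over the 4 samples were sought by the Euclidean distance between profiles of log2(FPKM + 1), each centred on its mean. For Foxj1 these were BC049715 (distance 0.158), Proc (0.199) and Arhgap30 (0.213). BC049715 had an FPKM of 12.1 and 18.7 in mutants and 30.1 and 18.5 in controls, again with control 1 as the highest. For Ccno they were Ccdc106 (0.00609), Mterfd2 (0.0229) and Adarb1 (0.0340), of which Ccdc106 had 3.48 and 3.11 against 4.68 and 5.04. For E2f5 they were Synpo (0.0590), Akap10 (0.0617) and Adamts2 (0.0663). E2f4 varied too little for such a search, with a range of 0.20 on the log2 scale. These distances rest on 4 samples and describe the profiles only.

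**Figure D5:**
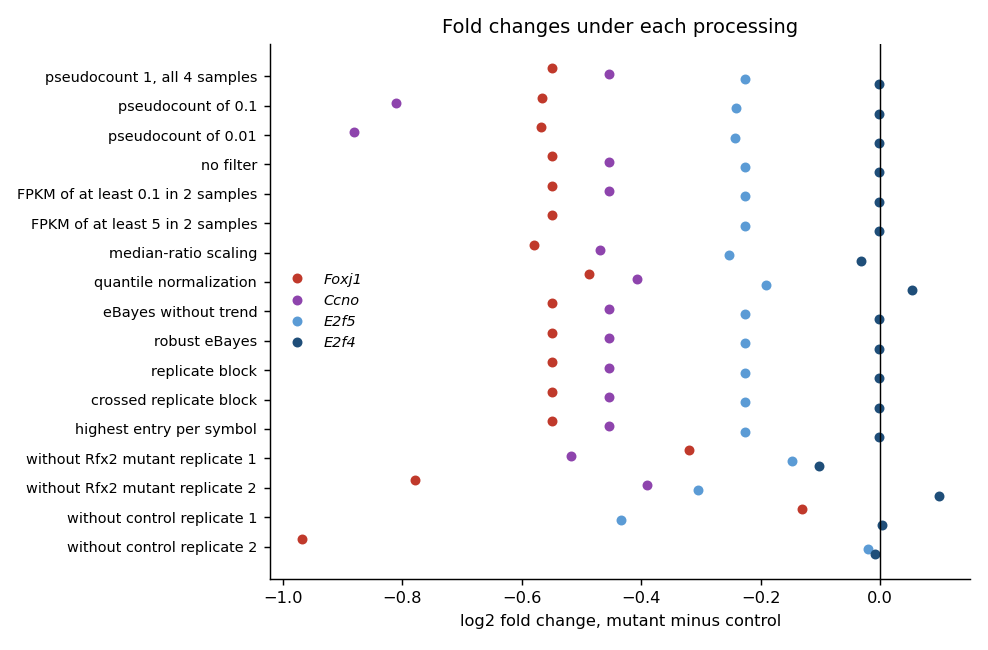
Log2 fold change, mutant minus control, of Foxj1, Ccno, E2f5 and E2f4 under each way of processing, with a missing point where Ccno was under the filter. The points of Foxj1 spread from -0.97 to -0.13 when 1 sample is left out, those of E2f4 stay between -0.10 and 0.098, and those of Ccno move to -0.88 with a pseudocount of 0.01.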

How the data were processed

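RNA of whole testes at P24 was sequenced from 2 Rfx2 mutant and 2 control samples. Alignment by the authors used TopHat2 and mm9 (version 2.0.6 in the submitters' processing notes) and they deposited, per sample, a Cufflinks FPKM for every gene with the bounds of its interval. These FPKM are normalized for transcript length and depth, are not counts, and the output of Cuffdiff cannot be made again from them. No scaling between samples was added.

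FPKM of entries sharing a symbol were summed. Genes that reached an FPKM of 1 in 2 or more samples were compared as log2(FPKM + 1) in limma 3.58.1 under R 4.3.3 (lmFit, eBayes with trend, two-sided, Benjamini-Hochberg adjustment, threshold 0.05). In simulated data the fit called 4.04% of 2-fold and 53.7% of 4-fold changes, and 0.0159% of unchanged genes. The simulation changed fewer genes than the real fit called and took each gene's SD from few samples as its true spread. These shares therefore need not hold for the real fit. With 2 samples per group the fit has 2 residual degrees of freedom, and a gene that did not pass is not shown to be unchanged. Fragment numbers are the squared ratio of an FPKM to the standard error that its interval width implies (the upper bound minus the value, divided by 2), estimates that cover counting error only. Tables and figures were made with python 3.11.15, numpy 2.4.6, pandas 2.3.3 and matplotlib 3.10.9. Starts and positions come from GENCODE on NCBIM37.

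The 6 members and the 8 pathway and 9 cell type lists were chosen with earlier results of these data known. Named genes are the members, Rfx2, up to 4 genes per pathway list by lowest adjusted p past the threshold, 11 genes by role (Mcidas, Gmnc, Deup1, Gmnn, Mybl1, Mybl2, E2f1, Tfdp1, Tfdp2, Trp63, Rfx3), and the 3 nearest profiles of each tested member whose log2 range is at least 0.5. Genes named outside this rule are marked as such or serve as examples of a list.

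Alternatives were pseudocounts of 0.1 and 0.01, no filter, FPKM minimums of 0.1 and 5, quantile normalization, median-ratio scaling, robust eBayes or eBayes with no trend, the highest entry per symbol, a replicate block from the labels, and each sample left out. A crossed replicate block was added after the data were seen.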

Additional observations from a re-analysis of the deposited data

How the results depend on the processing

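The log2 fold changes of Foxj1, E2f5 and Ccno were negative under every alternative that gave a value, and none of the 4 tested members passed the threshold except Foxj1 without mutant 2. Leaving out 1 sample gave -0.97 to -0.13 for Foxj1 and -0.10 to 0.098 for E2f4, whose sign also turned with quantile normalization (0.054), a size far under its standard error. The number of members called was 0 to 1 over the left-out samples, and so was that of pathway genes called, which was 1 with robust eBayes (Rfx3) and 1 with the replicate block (Deup1). The motile cilium genes called lower numbered 7 without control 1 and 12 without mutant 2. Genes called lower were 199 without a filter, 202 with an FPKM minimum of 5 and 525 with the replicate block, against 327, and 79 to 944 with 1 sample left out, lowest without control 1 and highest without mutant 2. Genes called higher were 17, 17 and 70 under the same alternatives, 67 under robust eBayes and 16 under median-ratio scaling, against 40, and 10 to 138 with 1 sample left out, lowest without control 2 and highest without mutant 1. Fewer samples or genes enter several of these fits, and otherwise the cause was not tested. In the fits without a mutant sample and with the replicate block, limma took the variance almost wholly from all genes at a similar level. A pass there, as for Foxj1 or Deup1, does not measure the spread of that gene between samples.

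The correlation across genes between the deviations of samples with the same number was -0.15. It rests on 1 difference per group and cannot settle whether these samples were paired, which the labels do not say. A crossed replicate block called 266 genes lower and 28 higher. The adjusted p of Foxj1 under the replicate block was 0.305, and 0.259 when crossed, and that of Ccno 0.900 and 0.370. Ccno gave no value with an FPKM minimum of 5 or without either control sample, where it was under the filter. Depth limits Ccno, Myb and Trp73, and 2 samples per group limit all members.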
